A study of Mus musculus with 16 samples.

Results

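The striatum holds almost no glutamatergic neurons of its own, yet the 8 striatal libraries of this series held transcripts of genes that mark cortical excitatory neurons. The 9 genes described here are Slc17a7, Tbr1, Neurod1, Neurod2, Neurod6, Nr4a2, Emx1, Fezf2 and Bhlhe22. These were chosen by name, as rows of the deposited expression table, for their level in cortex and their spread between striatal libraries. They are 9 of the 24176 genes listed, and all 9 were among the 12348 genes tested. All of them reached the minimum of 1 RPKM in at least 2 libraries in cortex, and Neurod1, Neurod2, Emx1 and Fezf2 reached it only there. RPKM divides reads by the length of the gene and the depth of the library, so levels can be set side by side between genes.

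Pyramidal neurons of the cortex arise from the dorsal telencephalon, where Emx1 marks the lineage and a series of basic helix-loop-helix and T-box transcription factors directs their differentiation. They release glutamate, which the vesicular transporter Slc17a7 loads into synaptic vesicles. The striatum develops from the ventral telencephalon and consists mostly of GABAergic spiny projection neurons. It receives the axons of cortical neurons, whereas their cell bodies lie in the cortex, with the deepest layers and the claustrum nearest to the striatum.

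The series compared mice labelled wild type with conditional knockouts of Rai1, whose product binds chromatin in the nucleus, in 8 groups of 2 libraries. Cortex at 3 weeks came from B6/FVB F1 mice that were wild type or Nestin-Cre;Rai1CKO. Striatum came from B6/FVB F1 mice at 3 weeks and at 12 weeks that were wild type or Gad2-Cre;Rai1CKO. Hypothalamus at 8 weeks came from B6/129 F1 mice that were wild type or Vglut2-Cre;Rai1CKO. Nestin-Cre acts in neural progenitors, Gad2-Cre in GABAergic neurons and Vglut2-Cre in a class of glutamatergic neurons, so the cells that lose the gene differ between tissues. The tissue was flash frozen and extracted with Trizol as a whole, and fewer cells of a type and less RNA per cell cannot be told apart in such bulk samples. The labels do not say whether replicates were separate animals, so the p-values below reflect library spread alone, possibly of technical origin. No cortex of 12 weeks was analysed here, so the cortical reference is 3 weeks old for both ages of striatum.

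Libraries held an estimated 21708116 to 35620229 reads. Rai1 went against the labels in striatum and hypothalamus: at 3 weeks 3.77 and 3.24 RPKM were measured in the libraries labelled wild type and 6.52 and 7.01 in those labelled knockout, with 5.08 and 4.88 against 12.3 and 13.3 at 12 weeks. In hypothalamus it was 3.68 and 3.99 against 8.47 and 6.52. These values cover the whole gene, and the exons removed are not named in the labels, so the groups are called by their labels throughout. The striatal identity of the 8 libraries was checked with 23 genes of spiny projection neurons, among them Drd2 and Ppp1r1b. Their summed level was 1276 to 1918 RPKM in striatum against 177 to 260 in cortex and 107 to 126.8 in hypothalamus, and all 23 were called lower in wild-type cortex than in wild-type striatum at 3 weeks. Within striatum this sum was lowest, at 1276 RPKM, in knockout library 1 of 3 weeks.

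In cortex all 9 genes were far above their striatal level. They were chosen for that level, so it is given as a description, with no test. Between wild-type cortex and wild-type striatum at 3 weeks the log2(RPKM + 0.5) difference ran from 2.01 for Neurod1 to 5.26 for Slc17a7. Among all genes 43.5% were called in that comparison by limma and 20.6% were called higher in cortex, and nothing is read from this for the 9. The 4 cortical libraries and the 8 striatal libraries did not overlap for any of the 9 genes. Over the 4 cortical libraries the order of mean levels was Slc17a7 at 123 ± 7.58 RPKM (SD, n = 4), Neurod6 at 13.8 ± 3.37, Neurod2 at 9.94 ± 2.04, Tbr1 at 8.49 ± 0.50, Bhlhe22 at 5.81 ± 0.889, Nr4a2 at 4.49 ± 0.482, Emx1 at 4.33 ± 0.897, Fezf2 at 2.71 ± 0.204 and Neurod1 at 1.56 ± 0.149. The ranges of the 4 libraries overlapped for Neurod6 and Neurod2, Neurod2 and Tbr1, Bhlhe22 and Nr4a2, and Nr4a2 and Emx1, so these neighbours were not separated beyond their spread.

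The hypothalamus, a tissue outside both regions, gave a level at which to read low striatal values, though its strain and age differ from those of the striatum. Slc17a7 was at 0.0526 to 0.139 RPKM in the 4 hypothalamic libraries, below every striatal library. Nr4a2, at 1.51 to 2.58 RPKM, and Bhlhe22, at 0.674 to 1.203, were higher there than in most or all striatal libraries, and neither is limited to cortex among these tissues. Neurod1 was also higher in hypothalamus, at 0.246 to 0.456 RPKM, than in any striatal library. Tbr1, Neurod2 and Neurod6 were at 0.0890 to 0.178, 0.126 to 0.381 and 0.226 to 0.498 RPKM in hypothalamus. In wild-type library 1 of 3 weeks and both knockout libraries of 12 weeks, none of these genes exceeded its hypothalamic range. All were above that range in both knockout libraries of 3 weeks and in wild-type library 2 of 12 weeks.

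**Figure D1:**
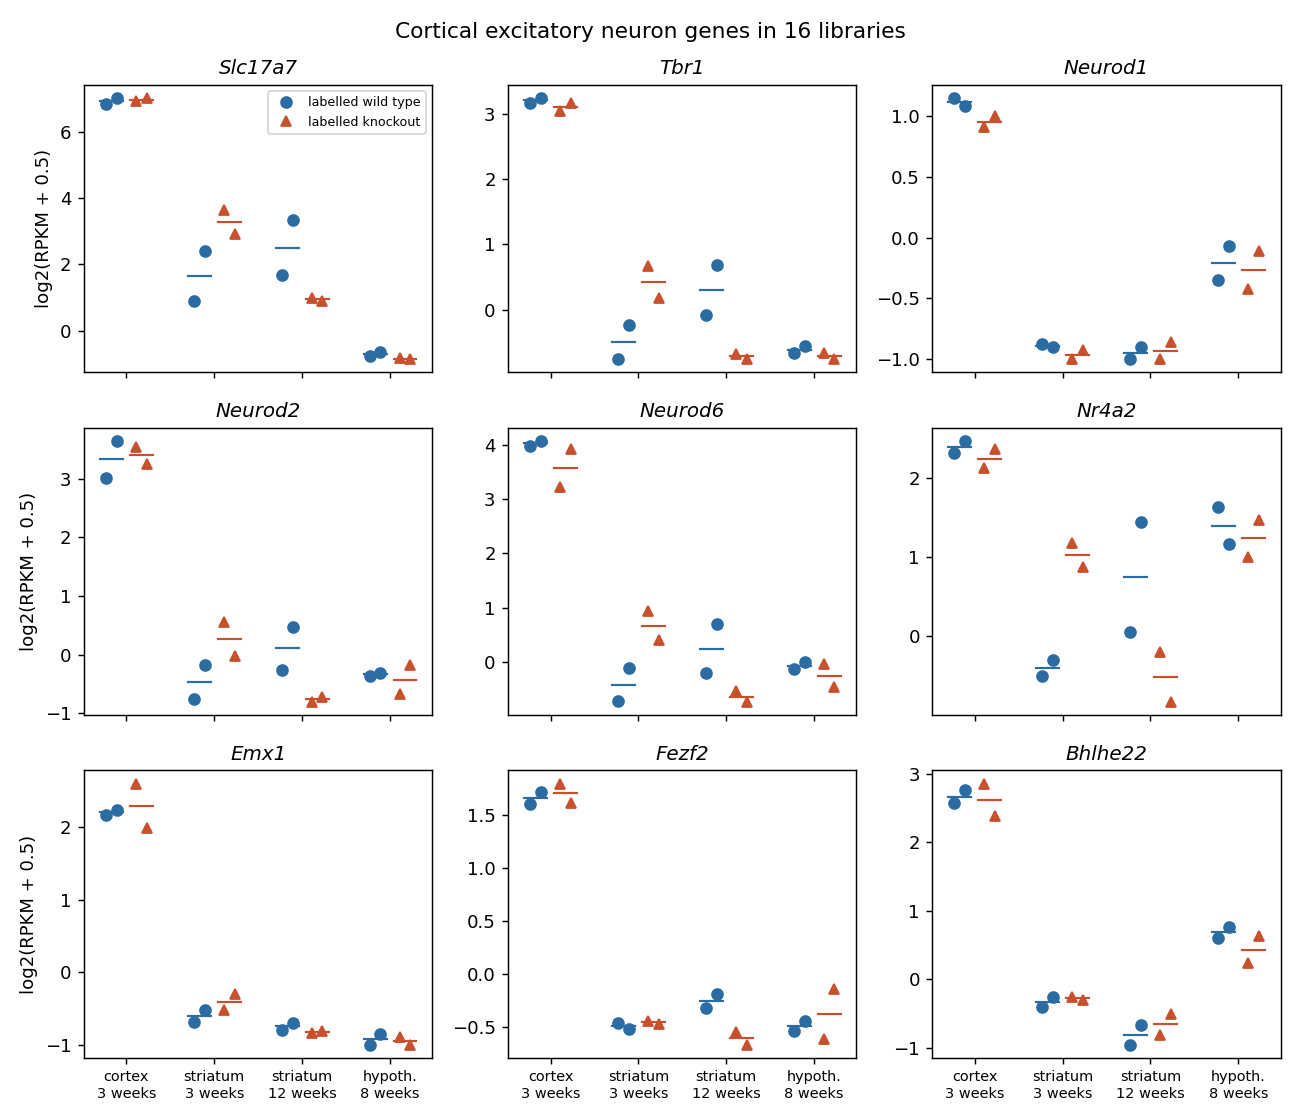
Level of each of the 9 genes, as log2(RPKM + 0.5) on the y axis, in the 16 libraries grouped by tissue and age; circles are libraries labelled wild type, triangles libraries labelled knockout, and horizontal lines are means of 2. Cortical libraries lie above all striatal libraries for each gene, and in striatum Slc17a7, Tbr1, Neurod2, Neurod6 and Nr4a2 share a high pair of 3-week knockout libraries and 1 high 12-week wild-type library.

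Slc17a7 set the largest signal. In striatum at 3 weeks its RPKM was 1.36 and 4.85 for wild type and 12.0 and 7.13 for knockout. At 12 weeks the wild-type libraries stood at 2.68 and 9.58 and the knockout libraries at 1.49 and 1.36. Expressed against its mean of 121 RPKM in wild-type cortex, the striatal libraries held 1.12% to 9.95% of the cortical level. The 2 wild-type libraries of 12 weeks differed by 6.90 RPKM, which is more than the distance between the group means of that age, 6.13 for wild type and 1.43 for knockout. Because 94 to 1207 reads stood behind these values, counting error is small beside the difference between the high and the low libraries. It is not small between the knockout libraries of 12 weeks, at 97 and 94 reads.

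Tbr1, a T-box factor of postmitotic glutamatergic neurons and of corticothalamic neurons in the deep layers, shared its 3 highest libraries with Slc17a7. At 3 weeks its RPKM was 0.0918 and 0.344 for wild type against 1.10 and 0.627 for knockout, and at 12 weeks 0.444 and 1.10 against 0.124 and 0.0907. Knockout libraries were both above wild type at 3 weeks and both below at 12 weeks. The highest library held 12.2 times the level of the lowest, against 8.85 times for Slc17a7.

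Neurod2 and Neurod6 are basic helix-loop-helix factors that stay on in mature pyramidal neurons. Neurod2 stood at 0.0895 and 0.389 RPKM for wild type against 0.963 and 0.489 for knockout at 3 weeks, and at 0.336 and 0.884 against 0.0717 and 0.108 at 12 weeks. Neurod6 was at 0.104 and 0.419 against 1.40 and 0.817 RPKM at 3 weeks, and at 0.362 and 1.11 against 0.188 and 0.0986 at 12 weeks. Both were highest in knockout library 1 of 3 weeks, with wild-type library 2 of 12 weeks next. Their ratio of highest to lowest library was 13.4 and 14.2.

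The start regions of Neurod2 and Neurod6 are shown because these members of a single family varied together between libraries while the third member, Neurod1, did not. They are RefSeq sequences of build GRCm38.p6, from 250 bases before to 50 bases after the start, on the minus strand at chr11:98329596-98329895 for Neurod2 and chr6:55681214-55681513 for Neurod6. Capitals mark CAGATG, an E-box to which factors of the Neurod family can bind.
Neurod2: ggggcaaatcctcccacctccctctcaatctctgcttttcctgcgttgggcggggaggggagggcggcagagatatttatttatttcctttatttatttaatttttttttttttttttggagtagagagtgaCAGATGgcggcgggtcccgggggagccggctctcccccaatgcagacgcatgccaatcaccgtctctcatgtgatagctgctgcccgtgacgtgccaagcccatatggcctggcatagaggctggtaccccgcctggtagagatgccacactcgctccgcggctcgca
Neurod6: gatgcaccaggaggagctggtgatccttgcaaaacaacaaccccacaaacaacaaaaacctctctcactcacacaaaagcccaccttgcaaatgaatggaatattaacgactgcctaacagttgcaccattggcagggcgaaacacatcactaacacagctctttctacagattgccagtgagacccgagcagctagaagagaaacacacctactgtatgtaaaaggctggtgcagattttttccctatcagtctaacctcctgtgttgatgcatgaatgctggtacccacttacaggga
Of the 9 genes, 8 were matched in the RefSeq table, and Bhlhe22 was not. The motifs CAGATG and CAGCTG, the latter its own reverse complement, were searched on both strands and do not overlap each other in a single match. Either was present in 1 of the 8 start regions (12.5%), that of Neurod2, and in 30.6% of all 32851 start regions of the same length. The presence of these 6 letters is a description of the sequence and not of binding.

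These 4 genes, Slc17a7, Tbr1, Neurod2 and Neurod6, stood at a similar share of their cortical level in each striatal library. Their shares spanned 0.660% to 1.12% in wild-type library 1 and 2.65% to 4.01% in wild-type library 2 of 3 weeks. They spanned 8.89% to 12.5% in knockout library 1 and 4.999% to 7.13% in knockout library 2 of that age. At 12 weeks the span was 2.21% to 5.04% and 7.05% to 12.6% in the wild-type libraries, and 0.733% to 1.41% and 0.624% to 1.13% in the knockout libraries. Between the lowest and the highest library each of the 4 genes thus differed 8.85-fold to 14.2-fold, while within a library the highest share was under 3 times the lowest. The ratio of Slc17a7 to Neurod6 was 7.44 to 13.6 in the 4 cortical libraries and 7.41 to 13.8 in the 8 striatal libraries. In wild-type cortex, the reference for the shares, it was only 7.44 and 7.87. Every striatal library except wild-type library 1 of 12 weeks was above both of these values. The cortical maximum came from knockout library 1, where Neurod6 was lowest in cortex. The striatal maximum, in knockout library 2 of 12 weeks, rested on 5 Neurod6 reads. The ratio of Slc17a7 to Tbr1 was 13.2 to 15.3 in cortex and 6.04 to 15.0 in striatum, with Tbr1 relatively higher in some striatal libraries. This grouping of the genes was made after their values were seen, and it carries no test. In wild-type library 1 of 3 weeks and the knockout libraries of 12 weeks, Tbr1, Neurod2 and Neurod6 did not exceed their hypothalamic range. Whether the low shares in those libraries reflect cortical transcripts was not tested.

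Nr4a2 encodes an orphan nuclear receptor that is strong in the claustrum and the deepest cortical layers and that also responds to neuronal activity. Its RPKM was 0.210 and 0.313 for wild type against 1.77 and 1.34 for knockout at 3 weeks, and 0.534 and 2.21 against 0.370 and 0.0634 at 12 weeks. It had the same high libraries as the 4 genes above, but at a much larger share of its cortical level. That share was 37.2% and 28.2% in the 3-week knockout libraries and 46.5% in wild-type library 2 of 12 weeks, against 1.34% to 11.3% in the other 5. Its highest library held 34.8 times its lowest. The ratio of Nr4a2 to Tbr1 was 0.493 to 0.556 in cortex and 0.699 to 2.97 in striatum, so the ranges did not overlap.

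**Figure D2:**
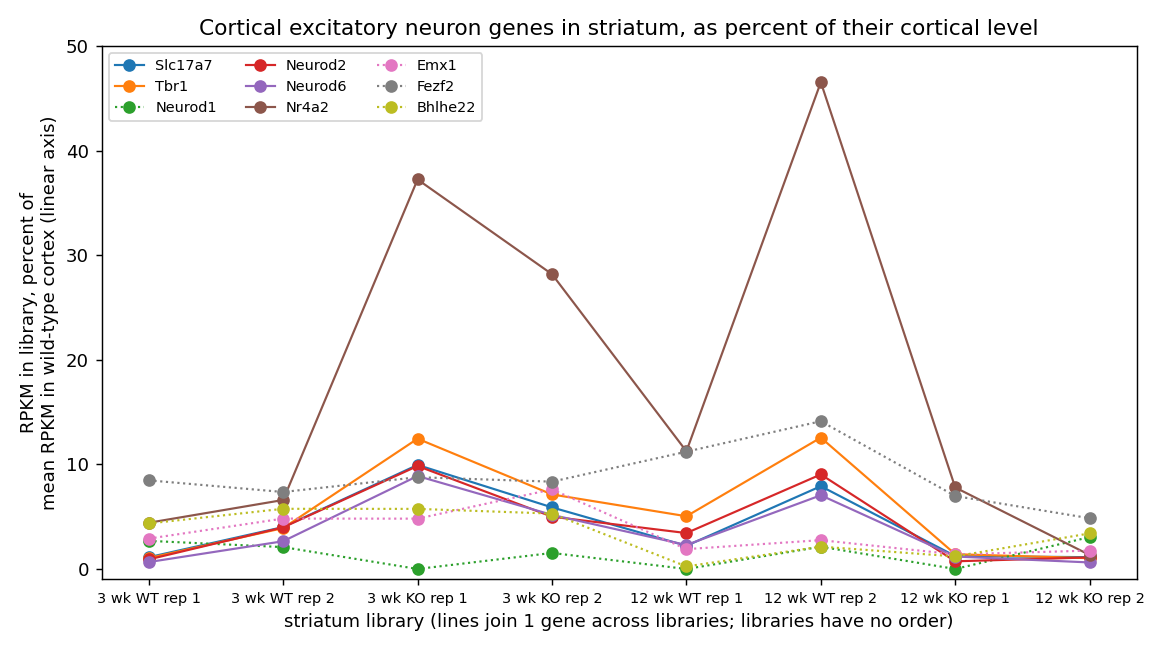
Level of each gene in the 8 striatal libraries (x axis, labelled by age, genotype label and replicate) as a percent of its mean RPKM in the 2 wild-type cortical libraries (y axis, linear); lines join values of 1 gene and carry no order, and dotted lines mark the 4 genes that did not follow Slc17a7. Nr4a2 reaches 37.2% and 46.5% where Slc17a7 is at 9.95% and 7.91%, whereas Emx1, Bhlhe22 and Neurod1 stay under Slc17a7 in those libraries.

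Emx1, the homeobox gene of the dorsal lineage, showed a narrower spread. In wild type it stood at 0.1196 and 0.198 RPKM at 3 weeks and 0.0781 and 0.113 at 12 weeks, and in knockout at 0.198 and 0.313, then 0.0575 and 0.0724. Its highest library was knockout library 2 of 3 weeks, not knockout library 1, and its highest to lowest ratio was 5.45. Only 2 to 15 reads stood behind these values, so counting error was large beside the differences between single libraries.

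Fezf2, a zinc-finger factor that specifies corticospinal and other subcerebral projection neurons, had the narrowest spread of the 8 genes that were above 0 in every striatal library, with a ratio of 2.91 between highest and lowest. Its level was 0.225 and 0.196 RPKM for wild type against 0.233 and 0.222 for knockout at 3 weeks, and 0.298 and 0.376 against 0.185 and 0.129 at 12 weeks. The 4 libraries of 3 weeks covered 7.36% to 8.77% of its cortical level, although Slc17a7 ran from 1.12% to 9.95% in them. Fezf2 in hypothalamus, at 0.152 to 0.403 RPKM, overlapped the striatal range.

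Bhlhe22, a basic helix-loop-helix factor linked to the identity of cortical areas and of their projection neurons, differed more by age than by genotype label. At 3 weeks its levels were 0.255 and 0.337 RPKM for wild type and 0.337 and 0.311 for knockout. At 12 weeks they were 0.0144 and 0.125 for wild type and 0.0705 and 0.1996 for knockout. All 4 libraries of 3 weeks were above all 4 of 12 weeks, and the lowest value came from 1 read. The difference between the ages in wild type was −0.49 on the log2 scale and did not pass in limma (SE 0.19, adjusted p = 0.061).

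Neurod1, which acts early in neuronal differentiation, was at or near 0 throughout the striatum. It was listed at 0 in 3 libraries and reached 0.0511 RPKM at most, from 0 to 4 reads per library. A count of 0 allows up to 3 reads, which corresponds to 0.0309 to 0.0504 RPKM here, and this floor covers counting error only. Cortex itself held only 1.38 to 1.72 RPKM at 3 weeks.

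The 2 libraries with the highest Slc17a7 were used to set each gene against the share of cortex that Slc17a7 gave in the same library. In knockout library 1 of 3 weeks, at 9.95% of the cortical level, Emx1 would be at 0.410 RPKM and was at 0.198, with an exact Poisson 95% interval of 0.0989 to 0.355 from 11 reads. Bhlhe22 would be at 0.583 RPKM and was at 0.337 (0.240 to 0.461), and Neurod1 would be at 0.166 and was at 0 (0 to 0.0393). These 3 genes were below that share in this library, and Nr4a2, at 1.77 RPKM (1.54 to 2.02) against 0.472, was above it.
Wild-type library 2 of 12 weeks gave the same directions for these 4 genes against 3-week cortex. There Emx1 was at 0.113 RPKM (0.0309 to 0.291) against 0.326, Bhlhe22 at 0.125 (0.0572 to 0.238) against 0.464 and Neurod1 at 0.0356 (0.00431 to 0.129) against 0.132. Nr4a2 was at 2.21 (1.89 to 2.56) against 0.375. Neurod2 and Neurod6 were within their intervals in both libraries, and Tbr1 was above in both, at 1.10 RPKM (0.928 to 1.29) against 0.875 and 1.10 (0.898 to 1.35) against 0.696. Fezf2 was within its interval in the first library and above it in the second. These directions for Emx1 and Bhlhe22 did not hold in every library. In wild-type library 1 of 3 weeks Bhlhe22 was above the share of Slc17a7, at 0.255 RPKM (0.172 to 0.364) against 0.0659, as was Emx1, at 0.1196 (0.0481 to 0.246) against 0.0463. Bhlhe22 was also above it in wild-type library 2 of 3 weeks, at 0.337 (0.2399 to 0.461) against 0.235, and in knockout library 2 of 12 weeks, at 0.1996 (0.114 to 0.324) against 0.0661. In wild-type library 1 of 12 weeks it was below, at 0.0144 (0.000364 to 0.0800) against 0.1299. The intervals cover counting error only and leave out the error of the cortical reference and the difference in age.

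Over the 8 striatal libraries the 10 pairs among Slc17a7, Tbr1, Neurod2, Neurod6 and Nr4a2 had Pearson's r of 0.905 to 0.987 on log2(RPKM + 0.5). With each gene centred within the 4 groups the same pairs had r of 0.722 to 0.995. Centred values of 2 libraries mirror each other, so each of these r rests on 4 independent values. The 5 genes were set apart after their values were seen, so high r among them follows in part from that choice. The other 26 pairs had r of −0.348 to 0.763. These correlations are a description over 8 libraries that share tissue and group structure. Their estimated depth differed by age, with 31264472 to 35620229 reads at 3 weeks and 21826922 to 23554474 at 12 weeks.

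**Figure D3:**
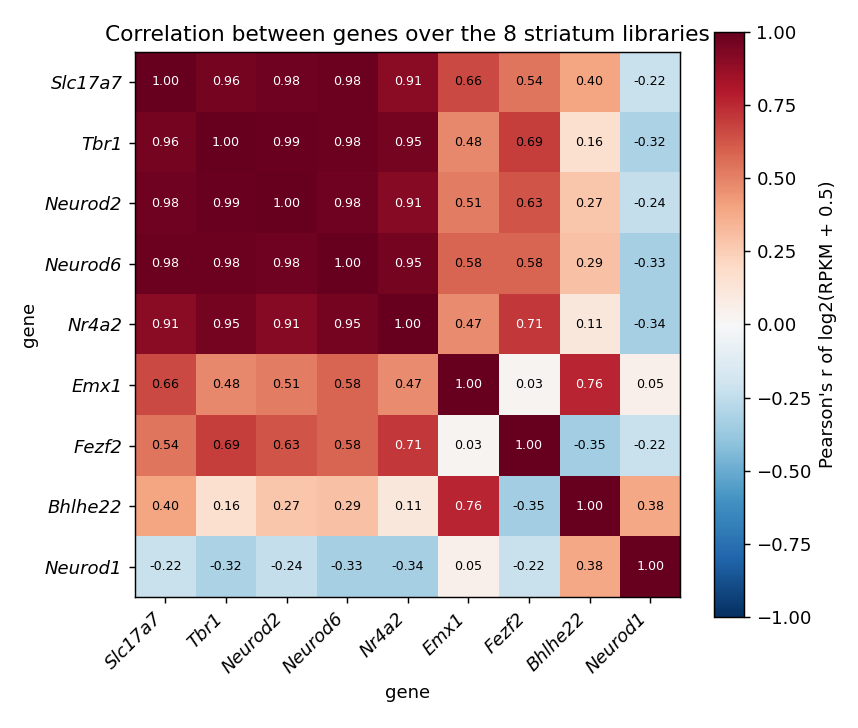
Pearson's r between pairs of the 9 genes over the 8 striatal libraries, computed on log2(RPKM + 0.5); the colour scale runs from −1 (blue) to 1 (red) and each cell prints its r. The upper left block of 5 genes lies between 0.905 and 0.987, and Neurod1 has negative r with each of those 5.

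The labelled genotypes were then compared in each set, which asks whether loss of Rai1 in GABAergic neurons goes with a change of these genes in striatum. At 3 weeks the 5 correlated genes were higher in both knockout libraries than in both wild-type libraries, a pattern shown by 10.3% of all genes. Of the other 4, Neurod1 had both knockout libraries below wild type, as did 23.9% of all genes. In limma the log2 difference was 1.63 for Slc17a7 (SE 0.47, adjusted p = 0.592), 0.92 for Tbr1 (SE 0.23, adjusted p = 0.481) and 1.43 for Nr4a2 (SE 0.35, adjusted p = 0.451). No gene of the 9 passed, and 0.0324% of all genes did. At an unadjusted p under 0.05 there were 5 of the 9, all higher, among 932 of all genes, and the median over the 9 was 0.73 against −0.13 over all genes. The 9 were chosen for their spread between these libraries, and the 5 vary together. These counts and medians are therefore a description, and no excess over all genes is read from them. The remaining 4 genes had differences of −0.07 to 0.20. Genes of other cells also had differences of mostly 1 sign in this comparison. All 14 oligodendrocyte genes had negative differences (median −0.31, 5 with an unadjusted p under 0.05), as did all 11 microglia genes (median −0.54, 6 with an unadjusted p under 0.05) and 19 of 23 spiny projection neuron genes (median −0.23, 2 with an unadjusted p under 0.05). None of these genes was called, and their part in the difference of the 9 genes was not tested.

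At 12 weeks the sign was the opposite. The 5 genes, together with Emx1 and Fezf2, were lower in both knockout libraries than in both wild-type libraries, as were 8.16% of all genes, and 0 of the 9 were higher in both, against 19.9% of all genes. The log2 difference was −1.55 for Slc17a7 (SE 0.47, adjusted p = 0.844), −1.02 for Tbr1 (SE 0.23, adjusted p = 0.399) and −1.26 for Nr4a2 (SE 0.35, adjusted p = 0.739). Again none of the 9 passed in limma, against 0.0405% of all genes, while 6 of the 9 had an unadjusted p under 0.05, all lower, among 543 of all genes. The median over the 9 was −0.87 against 0.08 over all genes. The same limit of choice holds here, and these values too are a description. All 14 oligodendrocyte genes had positive differences here (median 0.33, 5 with an unadjusted p under 0.05), none was called, and their part in this result was not tested. Microglia genes were positive in 7 of 11 (median 0.05) and spiny projection neuron genes in 14 of 23 (median 0.04).

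Both results rest on few libraries. When only the 4 libraries of an age were fitted, Slc17a7 and Nr4a2 passed at 3 weeks (adjusted p = 0.0376 and 0.000412) and Slc17a7 passed at 12 weeks (adjusted p = 1.43e-09). In that 12-week fit the SE of Slc17a7 was 0.20, although the wild-type libraries were at 2.68 and 9.58 RPKM. Without wild-type library 1 of 12 weeks, the difference of Nr4a2 at that age was −1.95, against −1.26 with it. That fit left the high wild-type library 2 alone in its group.

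The difference between the ages, that is the knockout difference at 12 weeks minus that at 3 weeks, was tested as an interaction. It was −3.19 for Slc17a7 (SE 0.66, adjusted p = 0.505), −1.94 for Tbr1 (SE 0.33, adjusted p = 0.270), −1.6 for Neurod2 (SE 0.41, adjusted p = 0.532), −1.96 for Neurod6 (SE 0.43, adjusted p = 0.517) and −2.68 for Nr4a2 (SE 0.49, adjusted p = 0.286). None of the 9 passed in limma, nor did any gene of the series (0%), with 5 of the 9 and 1097 of all genes at an unadjusted p under 0.05. Being above at 3 weeks and below at 12 weeks in every library was shown by 5 of the 9 and by 213 genes in all, or 1.72%. The 9 were chosen for their spread in these libraries. The 5 also correlate at r of 0.905 to 0.987, so they are not separate observations and no excess is read from this count. The interaction was positive for all 14 oligodendrocyte genes (median 0.66, 7 with an unadjusted p under 0.05) and all 11 microglia genes (median 0.60, 4 with an unadjusted p under 0.05), against a median of 0.20 over all genes, and their part was not tested. Without wild-type library 1 of 12 weeks it was −4.02 for Slc17a7, −2.33 for Tbr1 and −3.38 for Nr4a2. That removal left wild-type library 2, high for these genes, as the only wild-type library of its age. Over all alternatives run the interaction was −4.02 to −2.00 for Slc17a7, −3.64 to −1.26 for Tbr1 and −4.32 to −1.84 for Nr4a2.

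**Figure D4:**
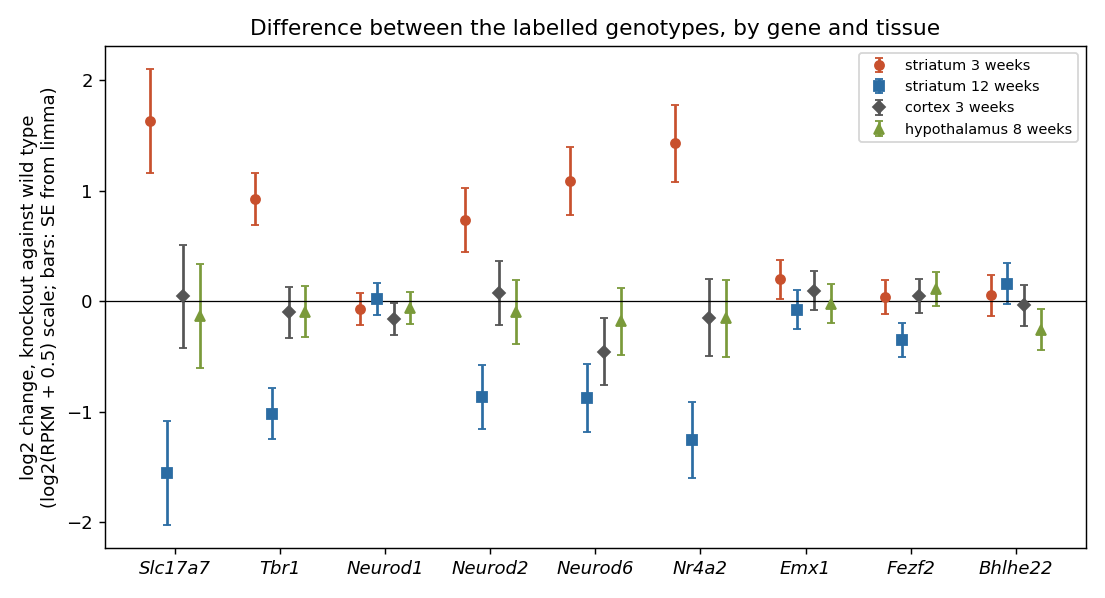
Log2 difference between libraries labelled knockout and wild type (y axis, on the log2(RPKM + 0.5) scale) for each gene in striatum at 3 weeks, striatum at 12 weeks, cortex and hypothalamus, each from 2 against 2 libraries, with bars of 1 SE from limma. The 5 genes from Slc17a7 to Nr4a2, Neurod1 aside, are positive in striatum at 3 weeks and negative at 12 weeks, and none of the points passed the test.

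In cortex, where these genes belong to resident neurons, the labelled genotypes were close. Slc17a7 was at 113 and 129 RPKM in wild type and at 120 and 129 in knockout. Neurod6 had the largest difference, at 15.2 and 16.4 against 8.81 and 14.6 RPKM, a log2 difference of −0.46 (SE 0.30, adjusted p = 0.915). For the other 8 genes it lay between −0.16 and 0.09. None of the 9 passed in limma or had an unadjusted p under 0.05, where 773 of all genes had one and 0.0405% passed (0.0162% higher and 0.0243% lower). In cortex no gene of the 9 had both knockout libraries above wild type (9.3% of all genes), and Tbr1, Neurod1 and Neurod6 had both below (21.6%). In hypothalamus 0 of the 9 had both knockout libraries above wild type (9.65% of all genes), and Slc17a7 had both below (24.6%). The differences there were −0.26 to 0.11, and again 0 of 9 passed in limma or had an unadjusted p under 0.05, against 0.0081% of all genes passing and 217 with an unadjusted p under 0.05.

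Age was compared within the wild-type striatum. Tbr1 and Nr4a2 were called higher at 12 than at 3 weeks, by 0.80 (SE 0.23, adjusted p = 0.0201) and 1.14 (SE 0.35, adjusted p = 0.0251) on the log2 scale, where 31.5% of all genes were called, 7.16% higher and 24.4% lower. For Tbr1 the libraries ordered as 0.0918 and 0.344 against 0.444 and 1.10 RPKM, without overlap. The median difference of all genes was −0.23, and it moved to 0.03 with median-ratio scaling, under which 3 of the 9 were called higher and 1 lower. Without wild-type library 2 of 12 weeks neither gene passed (adjusted p = 0.164 and 0.225), and without wild-type library 1 of 3 weeks neither passed (0.145 and 0.0951). Without wild-type library 2 of 3 weeks Tbr1 passed (0.0228) and Nr4a2 did not (0.0865). Oligodendrocyte genes moved with age in the same libraries, with a summed level of 2971 to 3771 RPKM in wild type at 3 weeks and 567 to 619 at 12 weeks, and their part in this result was not tested.

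Other genes of the same neurons were taken from a list of 32, of which 28 were tested. In wild-type cortex 19 of the 28 were called higher and 3 lower than in wild-type striatum at 3 weeks. Striatum expressed many of them, with 20 to 25 of the 32 at 1 RPKM or more in each library. Camk2a, a kinase subunit of excitatory synapses, was at 35.5 to 47.7 RPKM in the striatal libraries and 77.9 to 120 in cortex, and the synaptic protein gene Nrgn was at 55.7 to 107 RPKM in striatum and 48.4 to 66.8 in cortex. None of the 28 was called in either striatal knockout comparison in limma. At an unadjusted p under 0.05 there were 3 higher and 2 lower at 3 weeks and 0 higher and 3 lower at 12 weeks. Their median log2 differences were 0.05 and −0.11, against −0.13 and 0.08 over all genes.

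Likeness to the 9 genes was measured as Pearson's r, over the 8 striatal libraries, with the mean of the 9 standardised log2 levels. This r mixes differences between groups with spread inside them. The lists were chosen with earlier results of these data known, so the shares below are a description and carry no test. Of the 28 genes, 7 had r of at least 0.8 (25%), against 0.803% of the 12333 genes compared. Among these 7 were Nptx1 (0.94), Nov (0.93), Ntsr1 (0.88), Nxph3 (0.86), Slc30a3 (0.84) and Stx1a (0.80). Camk2a had r of −0.14 and was among 8 of the 28 below 0. Nov, the gene of a secreted matricellular protein, stood at 0.386 and 1.09 RPKM for wild type against 1.79 and 2.16 for knockout at 3 weeks, and at 0.600 and 1.66 against 0.523 and 0.547 at 12 weeks. It was high in the same 3 libraries as Tbr1, at 1.76% to 9.86% of the cortical level.

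In the list for layer 6b, the deepest cortical layer, and the claustrum, Ctgf and Cplx3 had larger shares than Slc17a7 in each striatal library. The secreted factor gene Ctgf was at 0.835 and 2.51 RPKM for wild type and 1.69 and 2.26 for knockout at 3 weeks, and at 0.839 and 2.72 against 0.796 and 0.336 at 12 weeks. Its share of the cortical level ran from 9.90% to 80.3%. Cplx3, a complexin of synaptic vesicle release that was singled out after its values were seen, ran from 1.95% to 57.0%. Both were high in the 3-week knockout libraries and in wild-type library 2 of 12 weeks, as Nr4a2 was. They differed from Nr4a2 in wild-type library 2 of 3 weeks, where Ctgf was at 74.1% and Cplx3 at 57.0% and Nr4a2 at 6.59%. Of the 10 genes of this list, 2 had r of at least 0.8 (Cplx3 0.87 and Ctgf 0.86). Other genes of the list did not follow these, with r of 0.65 for Ntng2, −0.07 for Nxph4 and −0.50 for Svil. Ntng2 ran from 7.02% to 34.0% of its cortical level. In wild-type library 2 of 3 weeks it was at 8.30%, below the 11.8% of its replicate. Gnb4 and Lpar1, the 2 most abundant of the list in cortex, were higher in striatum at 3 weeks, at 12.9 to 16.6 and 15.6 to 20.4 RPKM against 9.14 to 10.1 and 6.98 to 8.49 in cortex.

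**Figure D5:**
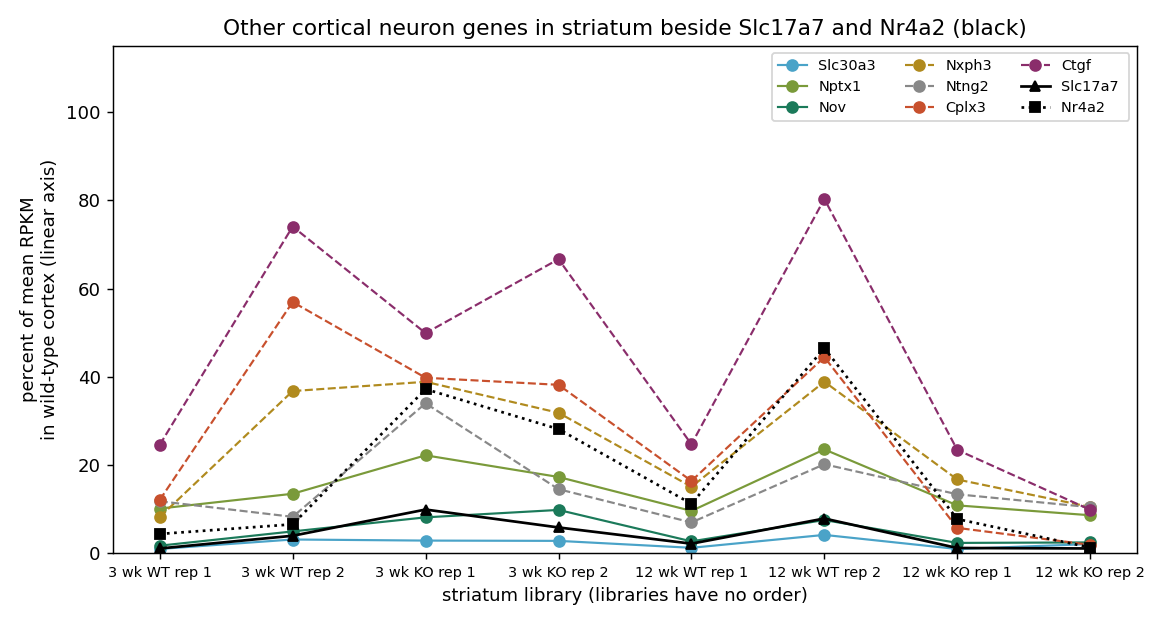
Level of 7 other genes of cortical neurons in the 8 striatal libraries, as a percent of their mean RPKM in wild-type cortex (y axis, linear), with Slc17a7 (black triangles) and Nr4a2 (black squares) for comparison; solid coloured lines are genes of the general excitatory list, and dashed ones are Nxph3 of that list and 3 genes of the layer 6b and claustrum list. The 7 were chosen after their values were seen; Ctgf reaches 80.3% and Cplx3 57.0%, while Slc30a3 stays at or below 4.20%.

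Among all genes, the 12 whose pattern was most like that of the 9 were Necab3, Prss12, Gng2, Cck, Dnm1, Lingo1, Nptx1, Kcnc4, Nrn1, Cadps2, Galnt9 and Nov, with r of 0.934 to 0.971 over the 8 libraries. All 12 were called higher in wild-type cortex than in wild-type striatum, where 20.6% of all genes were, and 2 of the 12 were on the list of other cortical genes. Cck, the gene of the neuropeptide cholecystokinin, was at 4.45 and 5.67 RPKM for wild type and 11.2 and 10.98 for knockout at 3 weeks, and at 2.84 and 8.42 against 2.05 and 2.56 at 12 weeks. Its share of the cortical level was 5.06% to 27.5%, above that of Slc17a7 in each library. Nrn1, the gene of an activity-dependent membrane protein, was nearer to Slc17a7, at 1.23% to 7.0%. The 6 genes of lowest r were Fadd, Krt12, Star, Gpr137b, Trappc9 and Htr4, from −0.930 to −0.861, and 2 of them were called higher and 1 lower in wild-type cortex. With genes centred within groups none of the 12 was kept, and with Spearman's rho 4 were, so the names beyond these depend on the measure.

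Markers of other cells were set beside the 9 genes. Of 23 spiny projection neuron genes 0 had r of at least 0.8 with them, where 0.803% of all genes compared did, and none was at 0 in any striatal library. In lists this short a count of 0 is near that share, so the counts of 0 here set no cell type apart. Thalamic neuron genes summed to 5.31 to 8.51 RPKM over the striatal libraries against 72.9 to 96.7 in hypothalamus, and 0 of the 8 tested had such an r. The count was also 0 for oligodendrocyte, astrocyte, microglia, endothelial and choroid plexus genes, although the oligodendrocyte genes had differences of 1 sign between the labelled genotypes at each age and the microglia genes at 3 weeks, and it was 1 of 16 for interneuron genes (Cck) and 1 of 7 for hippocampal genes (Grp). In knockout library 1 of 3 weeks, where Slc17a7 was highest, the spiny projection neuron sum was the lowest of the 8. In knockout library 2 of 3 weeks, also high for Slc17a7, that sum was the highest of the 8, at 1918 RPKM. In wild-type library 2 of 12 weeks it was 1731 RPKM, above the 1387 of its replicate.

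Few genes were called between the labelled genotypes in striatum, and their levels in the libraries that were high for the 9 genes were examined. At 3 weeks Nts, Htr2a, Brinp3 and Pcdh20 were called lower in knockout. The neuropeptide gene Nts was at 5.83 and 8.15 RPKM for wild type and 0.468 and 1.598 for knockout. The serotonin receptor gene Htr2a was at 7.22 and 11.2 against 3.19 and 3.58. These genes were low in the libraries in which Slc17a7 was high. Wild-type cortex held Nts at 0.628, Htr2a at 6.19, Brinp3 at 7.79 and Pcdh20 at 7.82 RPKM. The part of cortical transcripts in the levels of these 4 genes was not tested. In the full fit the log2 differences of Nts, Htr2a, Brinp3 and Pcdh20 were −2.38, −1.29, −1.07 and −0.97. Without knockout library 1 they were −1.82, −1.22, −1.09 and −1.03. Without wild-type library 2 they were −2.15, −0.99, −1.18 and −1.03. Each removal left 1 library in a group, so these 4 calls rest on few libraries.

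At 12 weeks Htr2a, Sema3a, Cdh9 and Slitrk1 were called lower and Rai1 higher in knockout, and here 7 of the 9 genes were lower in the same libraries. The repulsive guidance factor gene Sema3a was at 1.88 RPKM in wild-type library 1 and 1.74 in library 2, and at 0.531 and 0.577 in knockout. Htr2a was at 4.50 and 5.38 against 1.13 and 1.01. Cdh9, a cadherin gene, was at 7.20 in wild-type library 1 and 10.45 in library 2, against 3.39 and 3.17. Slitrk1, a gene of a synaptic adhesion protein, was at 3.75 and 4.66 against 1.88 and 2.08. The difference in Slc17a7 between the wild-type libraries, library 2 minus library 1, was 5.70% of its cortical level. At that share of their own cortical level Slitrk1 would differ by 0.891 RPKM and differed by 0.906, Cdh9 by 0.207 and differed by 3.25, and Htr2a by 0.352 and differed by 0.875. Sema3a would differ by 0.137 and differed by −0.144, and Rai1 by 0.286 and differed by −0.2004. In the full fit the log2 differences of Htr2a, Sema3a, Cdh9, Slitrk1 and Rai1 were −1.79, −1.13, −1.28, −0.92 and 1.28. Without wild-type library 2 they were −1.67, −1.18, −1.03, −0.78 and 1.25. Without knockout library 1 they were −1.84, −1.10, −1.32, −0.86 and 1.33. Each removal left 1 library in a group, so these calls too rest on few libraries. The part of cortical transcripts in these calls was not tested beyond these values.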

How the data were processed

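RNA sequencing gave 16 libraries in 8 groups of 2. The authors deposited RPKM values for 24176 gene symbols. The authors used TopHat2, cutadapt 1.6 and CASAVA 1.8.2 with build mm9 of the mouse, per the submitters' processing notes. How reads were counted, with or without strand, and what total the RPKM was divided by is not stated in those notes or the labels, so overlapping and antisense genes are uncertain. No mm9 coordinates are printed. Start regions come from RefSeq on GRCm38.p6.

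The fit used limma 3.58.1 (R 4.3.3) with 8 group means over 16 libraries, a variance trend and 8 residual degrees of freedom. It was made on log2(RPKM + 0.5), a scale that understates changes of low genes. Tested were the 12348 genes that reached 1 RPKM in 2 or more libraries. Benjamini-Hochberg adjustment ran over all of them, at a threshold of 0.05. The fit was checked on simulated data. The table did not hold 1 of the 24 symbols listed for spiny projection neurons.

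Depth was estimated from the RPKM step of 1 read in 279 to 327 single-exon genes per library. Between 80.7% and 88% of their values were whole reads within 0.05 read. With a step of 1 read divided by 2 the share was 93.1% to 96.9%, so the reads are approximate and no count test was run. Poisson intervals and floors use this estimate.

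The 9 genes and all lists were chosen with earlier results of these data known. Named by rule were the 9 genes, the 12 of highest and 6 of lowest likeness, genes called in striatum, up to 8 of the other cortical genes by cortical level and up to 4 of each other list, and Rai1. A gene of the other cortical list is counted but not reported here. Replicate numbers are shared between groups only as numbers. Alternatives changed the pseudocount, filter, scaling, threshold, variance trend, libraries fitted, replicate block, cortical reference and summary. A restriction to the 5 correlated genes, the removal of the 2 highest libraries together and a crossed block were chosen after seeing the data.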

Additional observations from a re-analysis of the deposited data

Results flagged for a closer look

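The striatal difference between labelled genotypes went opposite ways at the 2 ages for 5 genes: every knockout library was above every wild-type library at 3 weeks and below at 12 weeks. The difference at 12 weeks minus that at 3 weeks was -3.19 on the log2 scale for Slc17a7, -1.94 for Tbr1, -1.6 for Neurod2, -1.96 for Neurod6 and -2.68 for Nr4a2. The interaction was tested in limma with 2 libraries per group, and none of the 5 passed (adjusted p = 0.505, 0.270, 0.532, 0.517 and 0.286). With library 1 of the 3-week knockout and library 2 of the 12-week wild type left out together, 0 of the 9 genes passed. Groups of 2 are too small for a check on single outlying libraries.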

How the results depend on the processing

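Calls were stable in cortex (0), in hypothalamus (0) and for cortex against striatum (9 of 9, as the choice of genes fixes) under all alternatives run. For the 3-week striatum the count of the 9 genes called was 2 with only the groups compared and 0 when any library was left out. For 12 weeks it was 1 with only the groups compared and 0 to 1 on leaving out a library, and for the interaction 0 to 3. For wild-type age the count of 2 became 1 with no filter on low values (Nr4a2 adjusted p = 0.0639), 4 with median-ratio scaling, 1 with only the groups compared and 0 to 4 on leaving out a library. The cause was not tested, except that fits of the groups compared alone drop genes below 1 RPKM. Of the 9 genes, the striatal knockout fits of this kind kept only Slc17a7 and Nr4a2 at 3 weeks and only Slc17a7 at 12 weeks. Each fit without a library left 1 library in that group, so its count takes the spread from other groups. Signs reversed on leaving out a library for Bhlhe22 at 3 weeks (-0.024 to 0.13), Neurod1 at 12 weeks (-0.050 to 0.091) and the Bhlhe22 interaction (-0.042 to 0.25), all close to 0.

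The replicate block left the striatal knockout counts at 0 and 0, the interaction at 0 and the age count at 2. Same-numbered deviations correlated at -0.344 in cortex, 0.436 and -0.222 in striatum at 3 and 12 weeks and 0.154 in hypothalamus, so the numbers do not pair libraries. The crossed block at 12 weeks gave 0.

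The median share of cortex over the 9 genes was 2.69, 4.01, 8.89 and 5.89% in the 3-week libraries (wild type 1 and 2, knockout 1 and 2) and 2.29, 7.91, 1.23 and 1.34% at 12 weeks. With the lowest striatal value subtracted, 3-week wild type 1 and 2 became 1.51 and 2.88%, and 12-week knockout 1 and 2 became 0.383 and 0.00337%. With the mean over genes, 3-week knockout 2 was 8.24% and 12-week knockout 1 and 2 were 2.44 and 2.03%. A reference of 4 cortical libraries gave 1.33 and 1.41% for the latter. With 5 genes only, 3-week wild type 1 and 12-week knockout 2 were 1.04 and 1.11%. The last was 1.45% with median-ratio scaling and 1.55% without Slc17a7. Leaving out a cortical library gave 3-week wild type 2 at 3.81 to 4.97%, and 12-week knockout 1 at 1.16 to 1.32% and knockout 2 at 1.26 to 1.43%.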
